A study of Rattus norvegicus with 32 samples.

Results

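The insulin-like growth factor (IGF) system of the rat mammary gland was followed across the 4-day estrous cycle through 2 ligands, Igf1 and Igf2, the receptor Igf1r, and 6 binding proteins, Igfbp2 to Igfbp7. The members were all probe sets, groups of short oligonucleotides that together read a transcript, whose platform annotation gives them 1 of these 9 gene symbols. Of 31042 probe sets on the array other than controls, 21 did so, and the 18 with a median intensity of at least 10 over 31 arrays were kept, among 22943 kept in all. Igf1 has 3 of the 18, Igf1r 2, Igfbp3 2, Igfbp5 5, Igfbp6 2, and Igf2, Igfbp2, Igfbp4 and Igfbp7 have 1 each. The 3 left out are all of Igf2, the nearest to the limit being 1388252_at with a median of 9.76, and the lowest kept was 1368123_at of Igf1r with 95.3. All 18 exceeded the limit on each of the 31 arrays.

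Each array (Affymetrix Rat 230 2.0) held mammary RNA of 1 virgin adult Sprague-Dawley rat that received no treatment and was killed at its own hour of the cycle, so no hour has a replicate. Day 1 had 8 rats between 7 and 17.6 h, day 2 had 8 between 31.6 and 43 h, day 3 had 8 between 57 and 67.1 h, and day 4 had 7 between 79.3 and 88.1 h. Estrus falls on day 2, and clock hour is the hour since the midnight that began the day. A further rat of 40 h, which the series design does not count among its 31 arrays, was left out of the main comparisons. The study discarded this time point because its data looked corrupted. The sample labels describe the fourth pair of glands, kept in a stabilizing solution without the lymph node, whereas the study describes flash-frozen glands of the left side, and which applies was not settled.

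IGF1 and IGF2 are secreted proteins that act through the receptor tyrosine kinase IGF1R on growth and survival. The binding proteins hold the ligands in blood and tissue and can block or prolong their action. In the mammary gland, IGF1 made in the stroma downstream of growth hormone and estrogen is known for its role in duct growth, and IGFBP5 is known for its increase during involution after lactation.

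Windows of 250 bases before the annotated start (RefSeq, build GRCr8) were found for all 9 genes, 2 of them for Igf2. Igfbp2 and Igfbp5 are next to each other on chromosome 9. Their windows are shown because these neighbours, each by its brightest probe set, had opposite signs against Igf1r across rats. The Igfbp2 window (chr9:81864561-81864810, plus strand) holds an E-box, CACGTG, and a GC box, GGGCGG, both in capitals, and the Igfbp5 window (chr9:81914188-81914437, minus strand) holds none of the motifs searched.
Igfbp2: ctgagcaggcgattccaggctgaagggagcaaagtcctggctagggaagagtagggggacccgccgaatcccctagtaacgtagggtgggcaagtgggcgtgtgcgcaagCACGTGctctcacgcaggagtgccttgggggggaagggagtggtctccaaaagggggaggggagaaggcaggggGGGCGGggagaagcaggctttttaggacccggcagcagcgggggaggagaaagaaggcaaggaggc
Igfbp5: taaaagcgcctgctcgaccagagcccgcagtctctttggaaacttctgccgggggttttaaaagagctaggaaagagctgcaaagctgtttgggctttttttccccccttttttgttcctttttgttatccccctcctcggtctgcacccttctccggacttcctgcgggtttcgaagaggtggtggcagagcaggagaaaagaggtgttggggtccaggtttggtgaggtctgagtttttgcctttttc
The window of Igfbp4 (chr10:84491221-84491470, plus strand), a gene that varied with Igfbp7 across rats, is shown for its TATA box, TATAAA, in capitals, 40 bases before the start.
Igfbp4: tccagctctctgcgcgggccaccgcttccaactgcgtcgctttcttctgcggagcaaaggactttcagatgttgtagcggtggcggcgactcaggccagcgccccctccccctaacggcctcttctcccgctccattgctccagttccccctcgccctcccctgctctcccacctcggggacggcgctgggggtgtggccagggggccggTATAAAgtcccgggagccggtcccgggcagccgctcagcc
On both strands, CACGTG was found in the windows of 2 member genes, Igf1r and Igfbp2, against 5.59% of all 33469 windows. GGGCGG was found in 4 (Igf1r, Igf2, Igfbp2 and Igfbp7) against 30.5%, TATAAA in Igfbp4 alone against 12.9%, and GGTCA, the core of estrogen response elements, in Igf2 alone against 35.4%. TTCNNNGAA, a STAT motif, and CCAAT were in none of the member windows, against 7.67% and 34.0% of all. The windows of Igf1, Igf2, Igf1r and Igfbp7 run into a longer annotated transcript of the gene and are not printed. No motif overlapped another, and a match is a description of the letters.

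The 31 arrays had median intensities between 49.9 and 54.7. Marker lists of other cell types showed tissue content to vary between rats: the mean of 8 skeletal muscle markers varied 118-fold, that of 3 measured lymphocyte markers 16.7-fold and that of 8 adipocyte markers 2.58-fold. Mammary epithelium was represented in every rat, with a summed intensity of 8 luminal markers between 12635 and 25429 and of 8 basal and myoepithelial markers between 6889 and 16231. In day 3 against day 1, where 0.955% of all probe sets were called, 4 of 8 basal and myoepithelial markers were higher and 1 was lower. In the same comparison 2 luminal markers and 1 fibroblast and matrix marker were higher and 1 macrophage marker was lower, and the other 5 lists had 0 called in every day pair. Over clock hour, where 1.76% of all probe sets were called, 2 of 8 adipocyte markers, Pparg and Cidec, rose. Of 8 fibroblast and matrix markers 1, Pdgfra, fell.

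No IGF family probe set changed with cycle day or clock hour past the adjusted p threshold of 0.05 in limma. In day 3 against day 1, 0 of 18 were called, against 0.955% of all probe sets, and 1 of 18 had an unadjusted p under 0.05, against 13.7% of all. The count was 0 of 18 for day 2 against day 1 (0.00436% of all called), for day 3 against day 2 (0.227%), for day 4 against day 3 (0.0%), for day 4 against day 1 (0.0218%) and for day 4 against day 2 (0.0479%). It was 0 of 18 also for a difference among any days (0.501% of all called), for the slope over clock hour (1.76%) and for slopes that differ between days (0.00436%). An unadjusted p under 0.05 was reached by 2 member probe sets for day 2 against day 1 (5.82% of all), 0 for day 3 against day 2 (12.4%), 0 for day 4 against day 3 (5.79%), 1 for day 4 against day 1 (6.39%) and 2 for day 4 against day 2 (7.36%). It was reached by 0 among any days (10.9%), 0 for clock hour (12.1%) and 1 for slopes between days (3.66%). Method 1, the study's measure of the share of variance in a smooth spline over the hours of the cycle, called 0 of 18 at a false discovery rate of 0.25, against 8.04% of all probe sets.

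The members varied between rats. On the log2 scale 16 of 18 probe sets had an SD over the 31 rats above the median of all probe sets, 0.24, and their SDs ran from 0.17 for 1370960_at of Igfbp5 to 0.46 for 1367652_at of Igfbp3. Cycle day held between 3.95% and 23.8% of that variance, against a median of 10.3% over all probe sets. The median absolute change of the 18 in day 3 against day 1 was 0.14, against 0.10 over all probe sets, and for clock hour over 10 h it was 0.07, against 0.10. The intervals of all 18 probe sets in the 6 day comparisons lay between -0.73 and 0.79, and those of the slope over 10 h between -0.52 and 0.50, so larger changes fall outside the 95% intervals.

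**Figure D1:**
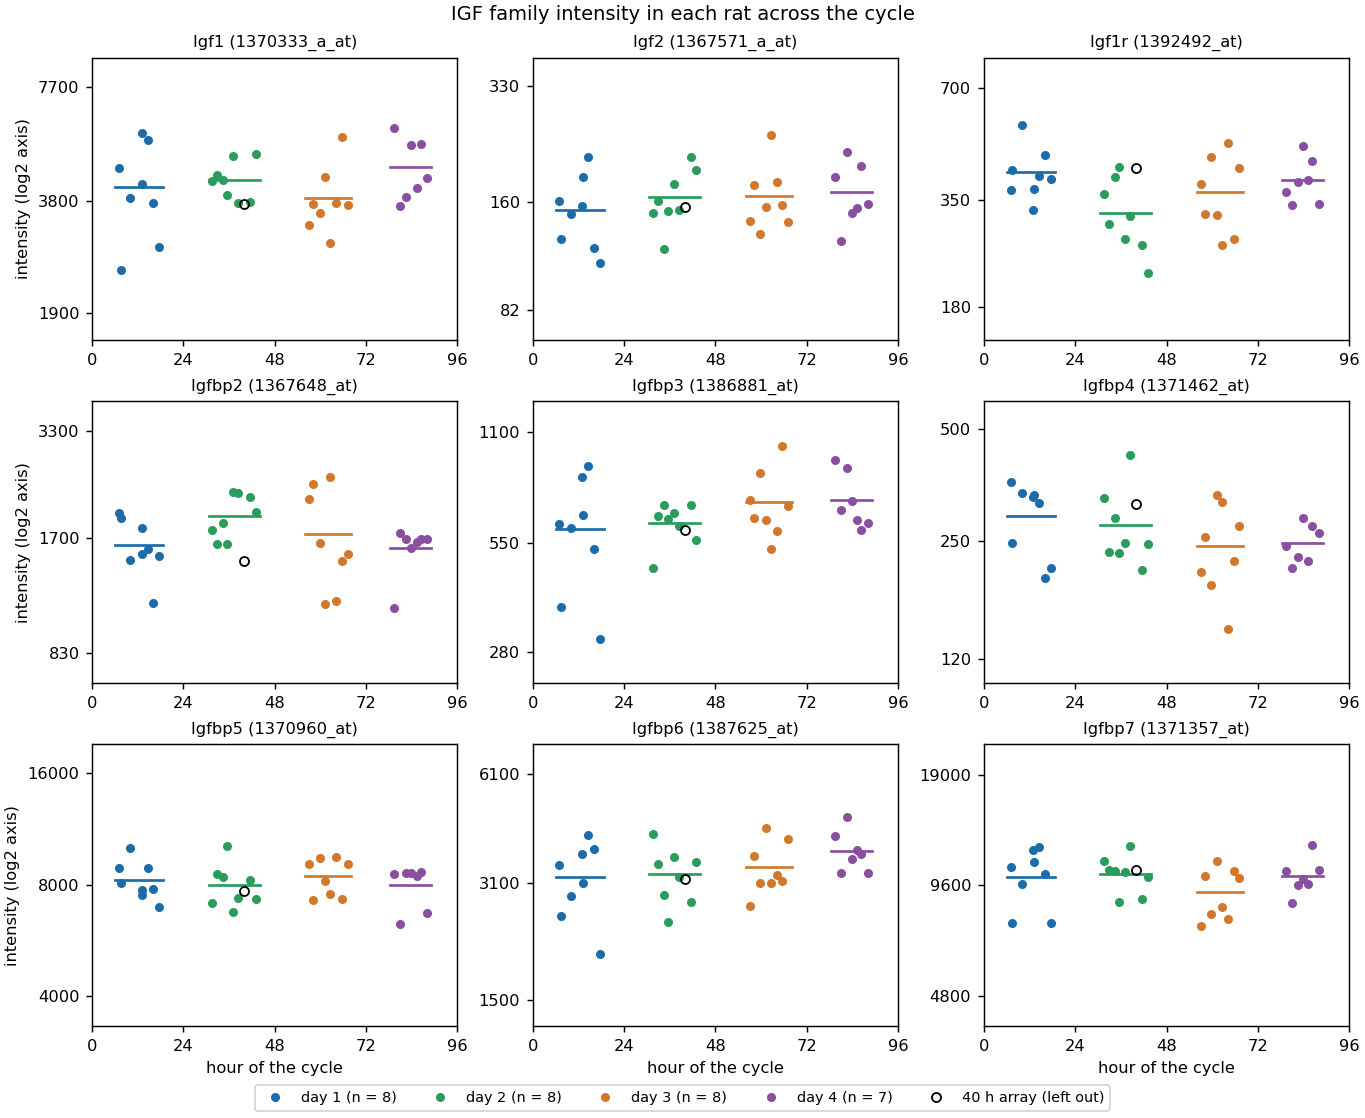
Intensity (log2 axis) of the brightest probe set of each of the 9 IGF family genes against the hour of the cycle, with 1 point per rat, a line at the mean of each day, and the 40 h array as an open circle. In each panel the rats of the 4 days overlap, and Igf1r has its lowest value, 221, on day 2.

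Of the ligands, Igf1 was measured by 3 probe sets that varied together, with r of 0.94 and 0.89 for the brightest, 1370333_a_at, with each of the others. Its intensity lay between 2472 and 5795 (median 4051) on day 1, 3749 and 5102 (median 4318) on day 2, 2925 and 5666 (median 3713) on day 3, and 3686 and 5988 (median 4397) on day 4. All days overlapped, and the rats of 7.5 h and 17.6 h, with 2472 and 2863, were the lowest of the 31. The largest estimate among day pairs was day 4 against day 3, 0.31 on the log2 scale (SE 0.16, 95% interval -0.02 to 0.63, limma adjusted p = 0.85). The other Igf1 probe sets gave 0.19 and 0.26 for the same comparison. Over 10 h of clock time the slope was 0.10 (interval -0.22 to 0.42, adjusted p = 0.84), with a mean of 4367 ± 921 (SD, n = 17) in rats sampled later in the day and 4109 ± 870 (SD, n = 14) in those sampled earlier.

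Igf2, the ligand best known from fetal growth, was read by a single kept probe set, 1367571_a_at. Its intensity lay between 110 and 212 (median 153) on day 1, 120 and 212 (median 157) on day 2, 131 and 243 (median 156) on day 3, and 126 and 219 (median 158) on day 4. The medians of the 4 days were close and the ranges overlapped. Day 4 against day 1 gave the largest estimate, 0.17 (interval -0.12 to 0.47, adjusted p = 0.93), and the slope over 10 h was 0.12 (interval -0.18 to 0.42).

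Igf1r, which binds both ligands, had the largest day difference among the brightest probe sets of the 9 genes, lower on day 2 than on day 1 in estimate but not past the threshold. Probe set 1392492_at lay between 328 and 557 (median 401) on day 1, 221 and 428 (median 308) on day 2, 264 and 497 (median 353) on day 3, and 339 and 489 (median 390) on day 4. Day 2 overlapped with day 1, although its 5 lowest rats fell below all 8 rats of day 1. Day 2 against day 1 was -0.37 (SE 0.14, interval -0.65 to -0.10, limma adjusted p = 0.76). The dimmer probe set 1368123_at gave -0.37 as well (SE 0.14, adjusted p = 0.78), with values between 61.3 and 123 (median 84.8) on day 2 and between 87.1 and 169 (median 100) on day 1. Across rats the 2 probe sets had r of 0.49 (rho 0.41), and 0.18, 0.38, 0.78 and -0.16 within days 1 to 4. This r was 0.32 without the 2 rats farthest from the median of 1368123_at. Within day 2 the slope of 1392492_at was -0.58 over 10 h (SE 0.25), the steepest of its 4 days, and the test of a difference in slope between days had an adjusted p of 0.9999. Over all days the slope was -0.17 for 1392492_at and 0.09 for 1368123_at, so the receptor's probe sets differed in sign and neither was called.

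Igfbp2, a binding protein that can also bind integrins, had its highest mean on day 2. Its intensity lay between 1134 and 1981 (median 1557) on day 1, 1636 and 2252 (median 1923) on day 2, 1129 and 2486 (median 1595) on day 3, and 1099 and 1746 (median 1682) on day 4. The 4 days overlapped, and day 3 held both the highest rat of all and the second lowest. Day 2 against day 1 was 0.28 (interval -0.02 to 0.58, adjusted p = 0.87) and day 4 against day 2 was -0.31 (interval -0.62 to 0.0046, adjusted p = 0.69). The slope over 10 h alternated between days, at -0.46, 0.31, -0.62 and 0.45 over days 1 to 4, with SEs between 0.24 and 0.34. The interaction test of these slopes had an adjusted p of 0.9999, from an unadjusted limma p of 0.026. Its share of variance in the Method 1 spline, 0.423, was the highest of the 18 member probe sets (adjusted p = 0.33), against a median of 0.247 over all probe sets.

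Igfbp3, the main IGF carrier in the circulation, was measured by 2 probe sets with r of 0.74. Intensity of 1386881_at lay between 304 and 891 (median 613) on day 1, 472 and 696 (median 647) on day 2, 531 and 1007 (median 668) on day 3, and 597 and 924 (median 676) on day 4. The days overlapped, and the low end of day 1 was set by the rats of 17.6 h and 7.5 h, with 304 and 370. Day 3 against day 1 was 0.30 (interval -0.04 to 0.65, adjusted p = 0.44) and day 4 against day 1 was 0.32 (interval -0.04 to 0.68, adjusted p = 0.83). The other probe set, 1367652_at, gave 0.29 and 0.31 for these comparisons.

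Igfbp4, which restrains IGF action until the protease Pappa cleaves it, lay between 199 and 359 (median 322) on day 1, 209 and 425 (median 246) on day 2, 145 and 332 (median 239) on day 3, and 211 and 287 (median 242) on day 4. The median was highest on day 1, yet the ranges overlapped. Day 3 against day 1 was -0.25 (interval -0.58 to 0.07, adjusted p = 0.51), and the slope over 10 h was -0.14 (interval -0.48 to 0.19).

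Igfbp6, which binds IGF2 with preference over IGF1, was measured by 2 probe sets with r of 0.95. Intensity of 1387625_at lay between 1996 and 4185 (median 3284) on day 1, 2431 and 4215 (median 3350) on day 2, 2689 and 4368 (median 3198) on day 3, and 3300 and 4672 (median 3720) on day 4. The lowest rat of day 4 was above the lowest of each other day, but the ranges overlapped. Day 4 against day 1 was 0.26 (interval -0.01 to 0.54, adjusted p = 0.82), and 0.28 for 1372168_s_at (interval 0.01 to 0.55, adjusted p = 0.75).

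Igfbp7, a relative with low affinity for IGFs that is known from vessel walls, had narrow day ranges. Its intensity lay between 7562 and 12156 (median 10487) on day 1, 8646 and 12192 (median 10420) on day 2, 7453 and 11147 (median 9191) on day 3, and 8574 and 12272 (median 9935) on day 4. The days overlapped. Day 3 against day 2 gave the largest estimate, -0.18 (interval -0.40 to 0.04, adjusted p = 0.48), and the slope over 10 h was 0.07.

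**Figure D2:**
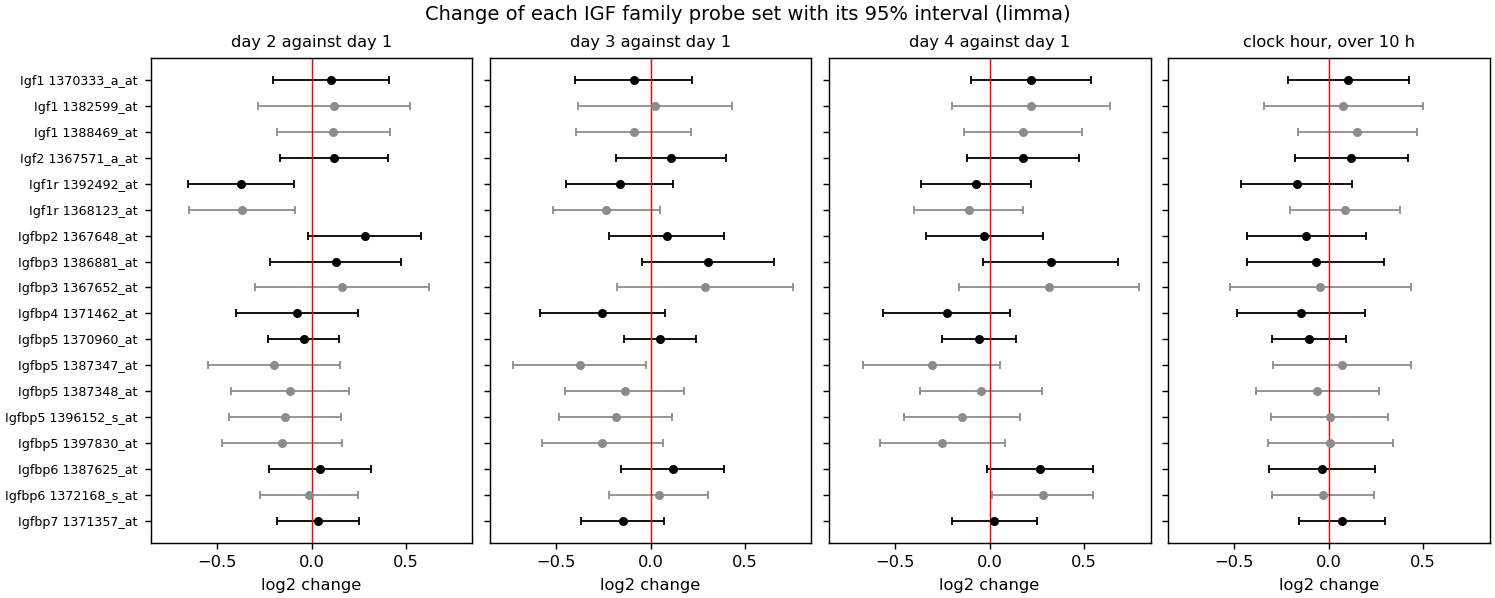
Log2 change with its 95% interval from limma for the 18 IGF family probe sets, for day 2, day 3 and day 4 against day 1 and for clock hour over 10 h, with the brightest probe set of each gene in black and the others in grey. Igf1r lies at -0.37 on both probe sets in day 2 against day 1, and no probe set passed the adjusted threshold.

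Igfbp5 had 5 probe sets that fell into groups which did not vary together. The brightest, 1370960_at, lay between 6959 and 10068 (median 7928) on day 1, 6774 and 10156 (median 7788) on day 2, 7295 and 9511 (median 8642) on day 3, and 6251 and 8649 (median 8539) on day 4. All days overlapped, and its largest estimate was -0.11 for day 4 against day 3 (interval -0.31 to 0.09, adjusted p = 0.89). Over the 31 rats 1370960_at and 1387348_at had r of 0.74 (two-sided permutation p = 1e-05, the smallest that 100000 shuffles can give), rho of 0.79, and positive r on all 4 days. The probe sets 1387347_at, 1396152_s_at and 1397830_at had r between 0.56 and 0.95 with each other. Across the groups r ran from -0.15 to 0.33, and the lowest adjusted p of these 6 pairs was 0.096, of 16 pairs of probe sets of the same gene. The change of 1387347_at in day 3 against day 1 was -0.38 (interval -0.73 to -0.02, adjusted p = 0.33), with values between 331 and 499 (median 406) on day 3 and between 399 and 738 (median 527) on day 1. The ranges overlapped, and in the same comparison 1370960_at had an estimate of 0.05, of the opposite sign.

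The groups of Igfbp5 probe sets also differed in sign against a measure of RNA integrity. The log2 ratio of the 3′ over the 5′ control probe set of beta-actin ran from 1.40 to 2.10 over the 31 rats, and daily medians lay between 1.63 and 1.84. Its r was 0.52 with 1370960_at (permutation p = 0.0028, adjusted p = 0.025 over 36 relations, rho 0.57) and 0.55 with 1387348_at (adjusted p = 0.016, rho 0.54), positive on all 4 days. It was -0.50 with 1397830_at (adjusted p = 0.030, rho -0.46) and negative on all 4 days, and -0.42 with each of 1387347_at and 1396152_s_at (adjusted p = 0.075 each). The same ratio had r of 0.57 with 1392492_at of Igf1r (adjusted p = 0.016, rho 0.56) and -0.58 with 1367652_at of Igfbp3 (adjusted p = 0.016, rho -0.56), and these were 5 of 36 relations past 0.05, from the 18 member probe sets and the ratios of beta-actin and GAPDH. The share of all probe sets that vary with these ratios is not given, so this count cannot be set against other probe sets. Without the 2 rats farthest from the median of the probe set, these 5 r were 0.44, 0.61, -0.43, 0.56 and -0.66. With the GAPDH ratio no r passed, and by rank 1368123_at of Igf1r did (rho 0.46, permutation adjusted p = 0.049), with r of 0.45 (adjusted p = 0.075), positive on all 4 days. By rank 1387347_at with the beta-actin ratio passed as well (rho -0.47, adjusted p = 0.049). The part of RNA integrity in the Igfbp5 split was not tested.

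**Figure D3:**
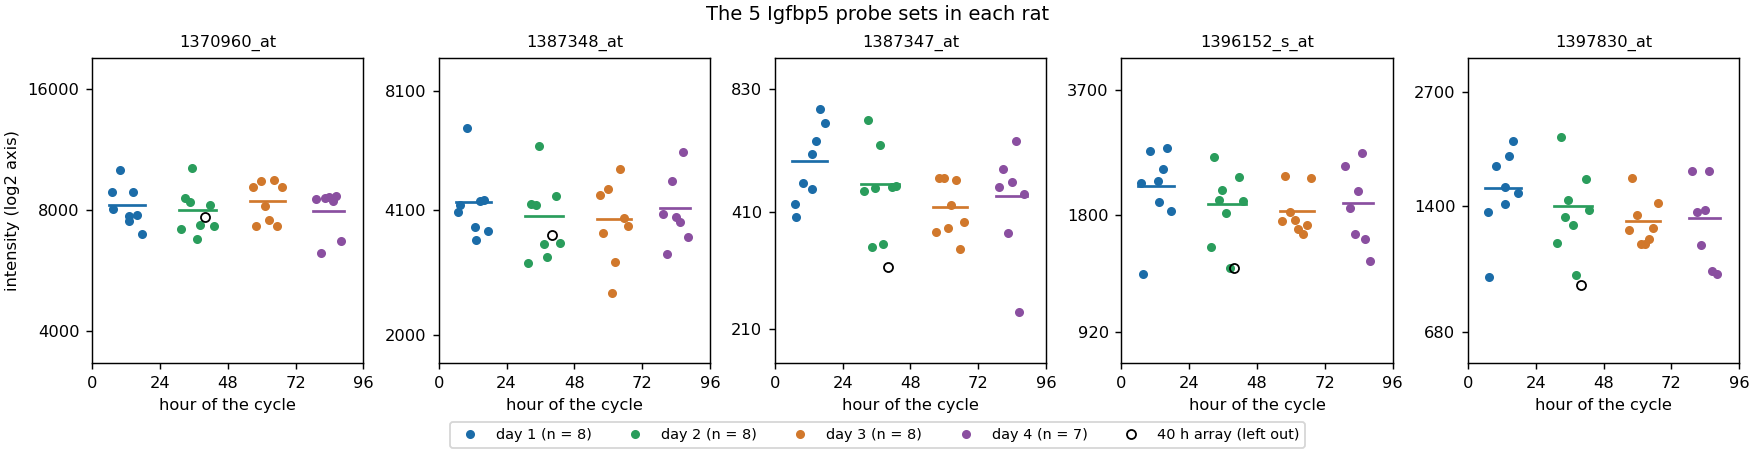
Intensity (log2 axis) of the 5 Igfbp5 probe sets against the hour of the cycle, 1 point per rat, with a line at the mean of each day and the 40 h array as an open circle. The rat of 10 h is the highest of day 1 in the first pair of panels, at 10068 and 6537, while the rat of 16 h is the highest of day 1 in the other 3.

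Members in the same or the opposite direction were sought as correlations of log2 intensity across the 31 rats, between the brightest probe sets of the 9 genes. Of 36 pairs, 20 had a positive r and 16 a negative r, and 8 passed an adjusted p of 0.05, 7 positive and 1 negative. For the 7 positive pairs, between 0.178% and 7.15% of 11796 other genes had a higher r with a gene of the pair than its partner had. For the negative pair, Igf1r and Igfbp2, 84.6% of other genes had a higher r with Igf1r and 99.2% with Igfbp2. The positive pairs linked Igf1, Igfbp3, Igfbp4, Igfbp6 and Igfbp7, and separately Igf1r and Igfbp5. In pieces of a whole tissue, fewer cells of a type and less RNA per cell cannot be told apart.

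Igf1 and Igfbp7 had the highest r, 0.74 (permutation p = 1e-05, adjusted p = 0.00036, rho 0.73 with permutation p = 2e-05). It was 0.72 without the 2 rats farthest from the median of Igf1, those of 7.5 h and 79.3 h. Within days 1, 2, 3 and 4 it was 0.96, 0.12, 0.67 and 0.69. The rats of 7.5 h and 17.6 h were low for both genes, with 7562 and 7567 for Igfbp7, and the rat of 17.6 h was kept in the r of 0.72. The rat of 7.5 h also had the lowest adipocyte mean and the highest beta-actin ratio, 2.10, of all rats. The rat of 17.6 h had the lowest mean of the fibroblast and matrix markers and of the endothelial markers. The part of these traits in the relation was not tested. Day 2, where the r was low, had a narrower range of Igf1 than the other days.

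Igfbp7 also varied with Igfbp4 (r 0.66, permutation p = 7e-05, adjusted p = 0.0013, rho 0.64) and with Igfbp6 (r 0.63, p = 0.00016, adjusted p = 0.0019, rho 0.54). The r with Igfbp4 was 0.57 without the 2 farthest rats and between 0.61 and 0.85 on each day. The r with Igfbp6 was 0.55 without them and 0.90, 0.67, 0.80 and 0.07 on days 1 to 4. Igf1 and Igfbp6 had r of 0.55 (adjusted p = 0.0065, rho 0.47), 0.47 without the 2 farthest rats, and positive values on all 4 days. After quantile normalization it was 0.46 and not past the threshold.

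Igf1 and Igfbp3 had r of 0.62 (permutation p = 0.00024, adjusted p = 0.0022), but rho of 0.39 (adjusted p = 0.13), with r of 0.94, -0.20, 0.66 and 0.18 over days 1 to 4. Without the rats of 7.5 h and 79.3 h, the 2 farthest for Igf1, it was 0.48, and the rat of 17.6 h was kept. Igfbp3 and Igfbp6 had r of 0.48 (adjusted p = 0.036), with 0.88, -0.69, -0.23 and 0.75 over days 1 to 4, and rho of 0.18. Their r was 0.09 without the 2 rats farthest for Igfbp3, those of 17.6 h and 7.5 h, so that relation rests on those rats.

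Igf1r and Igfbp5 had r of 0.60 (permutation p = 0.00033, adjusted p = 0.0024, rho 0.64), which was 0.55 without the 2 farthest rats and 0.57, 0.56, 0.93 and 0.73 on days 1 to 4. Both probe sets are among those that varied with the beta-actin ratio, and its part in this relation was not tested. Igfbp5 is read here by 1370960_at, whose r with 1387347_at, 1396152_s_at and 1397830_at ran from -0.15 to 0.33. Relations of Igf1r with those Igfbp5 probe sets are not given. Before any removal of tissue lists, Igf1r and Igfbp2 were the only pair in opposite directions past the threshold, with r of -0.47 (permutation p = 0.0081, adjusted p = 0.036, rho -0.47). It was -0.45 without the 2 farthest rats, and -0.41, -0.56, -0.39 and 0.08 on days 1 to 4. The rat of 43 h, the lowest for Igf1r at 221, had 1989 for Igfbp2, and the rat of 62.5 h, the highest for Igfbp2 at 2486, had 264 for Igf1r. After removal of day and clock hour the r of this pair was -0.40, and after quantile normalization it was -0.44, in neither case past the threshold. The neighbours Igfbp2 and Igfbp5 had r of -0.30 (adjusted p = 0.27).

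**Figure D4:**
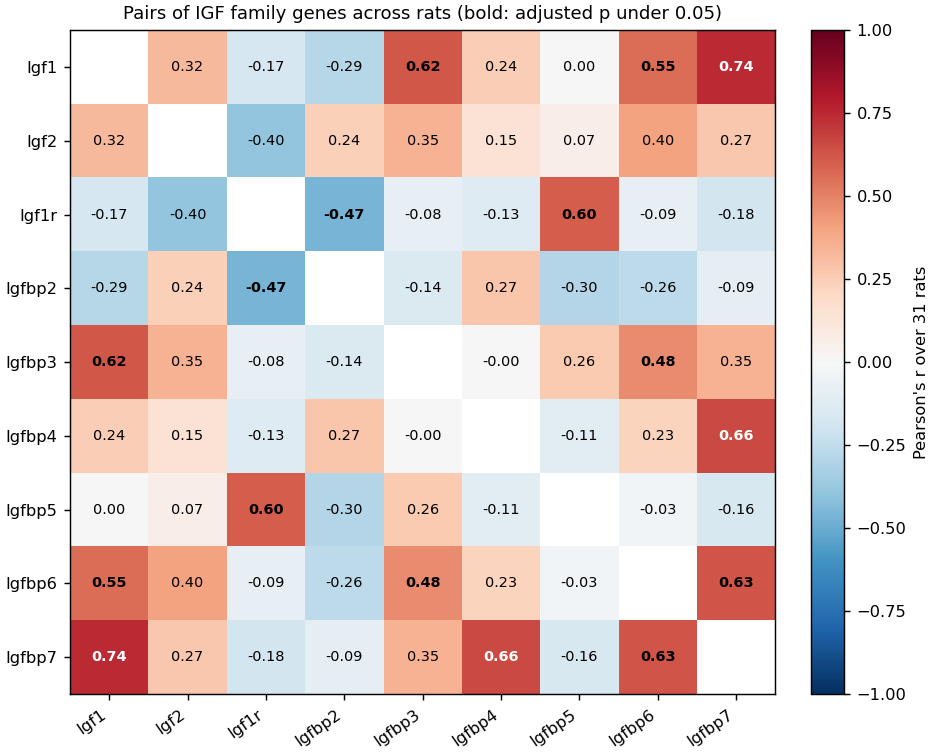
Pearson's r of log2 intensity over 31 rats for the 36 pairs of IGF family genes, each by its brightest probe set, with adjusted p under 0.05 in bold. Igf1 with Igfbp7 is highest at 0.74, and Igf1r with Igfbp2 is lowest at -0.47.

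Several members varied with markers of particular cell types, where 17 of 81 relations between the 9 genes and 9 marker lists passed an adjusted p of 0.05, 13 positive and 4 negative. The share of all genes that vary with these lists is not given, so this count cannot be set against other genes. Igf1 and Igfbp7 varied with the means of 8 adipocyte markers (r 0.72 and 0.81) and 6 measured endothelial markers (0.72 and 0.78), and against 8 measured luminal epithelial markers (-0.61 and -0.67). The highest permutation adjusted p of these 6 was 0.0028. Their rho lay between 0.68 and 0.77 in size. Without the 2 rats farthest from the median of the IGF family gene, r lay between 0.57 and 0.76 in size. Within days the endothelial r of Igf1 was 0.88, -0.27, 0.76 and 0.78, and the adipocyte r of Igfbp7 was 0.92, 0.74, 0.86 and 0.65. Igf1 and Igfbp7 also varied with the 7 macrophage markers (0.53 and 0.51) and the 8 fibroblast and matrix markers (0.60 and 0.58), and Igfbp7 with the 3 measured Schwann markers (0.57). The fibroblast and matrix r of Igf1 was 0.86, 0.15, -0.17 and 0.75 over days 1 to 4, and 0.48 without the 2 farthest rats.

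Igfbp2 stood apart from these, with r of 0.64 (permutation p = 0.00013, adjusted p = 0.0015, rho 0.61) with the mean of 8 basal and myoepithelial markers. It was 0.61 without the 2 farthest rats and 0.83, 0.75, 0.65 and 0.54 on days 1 to 4. The same list was the lowest in the rat of 16 h, which had the lowest Igfbp2 of day 1, 1134. Igfbp6 varied most with the fibroblast and matrix list (r 0.71, adjusted p = 0.00049, rho 0.62), positive on all 4 days. Igfbp4 varied against the luminal list (r -0.49, adjusted p = 0.024, rho -0.47). The r of Igfbp3 with the fibroblast and matrix list, 0.58, was 0.09 without the 2 farthest rats and rests on them. By the brightest probe set of each, Igf2, Igf1r and Igfbp5 had no r with a list past the threshold, which for Igfbp5 covers only 1 group of its probe sets. By rank, Igf2 varied against the 3 measured lymphocyte markers (rho -0.59, permutation adjusted p = 0.0041), with r of -0.44 (adjusted p = 0.055), -0.46 without the 2 farthest rats, and negative on all 4 days. By rank alone Igf1 with the lymphocyte list (rho -0.56, adjusted p = 0.0086) and Igfbp4 with the Schwann list (rho 0.46, adjusted p = 0.042) also passed.

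With the adipocyte, skeletal muscle, luminal and lymphocyte means removed from each gene, the r of Igf1 with Igfbp7 was 0.22, that of Igf1 with Igfbp6 0.30, that of Igfbp6 with Igfbp7 0.43 and that of Igfbp3 with Igfbp6 0.38, none of the 4 past the threshold. That of Igfbp4 with Igfbp7 was 0.57, that of Igf1 with Igfbp3 0.60, that of Igf1r with Igfbp5 0.58 and that of Igf1r with Igfbp2 -0.59, all 4 past it. The basal and myoepithelial list, with which Igfbp2 varied, was not among those removed. Nor were the fibroblast and matrix, endothelial and macrophage lists, with which other members varied. The pairs past the threshold are therefore not free of tissue content. Another 4 pairs passed only after this removal. The neighbours Igfbp2 and Igfbp5 were in opposite directions, with r of -0.48 (permutation adjusted p = 0.040). The others were Igfbp3 with Igfbp5 (0.52), Igf1 with Igfbp5 (0.46) and Igfbp2 with Igfbp4 (0.45).

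**Figure D5:**
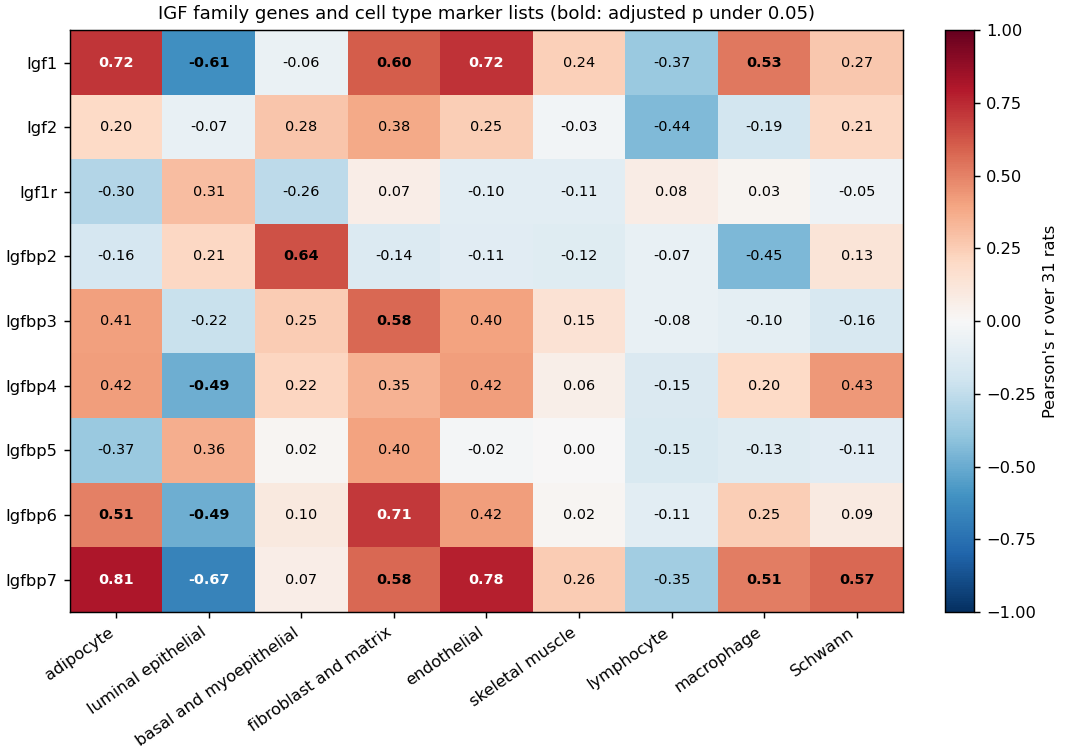
Pearson's r over 31 rats between the log2 intensity of 9 IGF family genes (rows) and the mean log2 intensity of 9 cell type marker lists (columns), with adjusted p under 0.05 in bold. Igf1 and Igfbp7 share a row pattern led by adipocyte and endothelial markers (0.72 to 0.81), and Igfbp2 has its only bold cell, 0.64, at basal and myoepithelial markers.

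Among 11796 other genes, the 3 most like each member in Pearson's r over the 31 rats were as follows, given as a description. Those of Igf1 were Art3, Slc1a3 and Optn (0.84, 0.84 and 0.83), and those of Igf2 were Daam2, Tmem218 and Kctd17 (0.73, 0.70 and 0.68). Those of Igf1r were Nfat5, Tmem87b and Cp (0.87, 0.84 and 0.82). For Igfbp2 they were Lgals7, Matn2 and Krt5 (0.82, 0.81 and 0.81), the last of these being a keratin of the basal list. For Igfbp3 they were Eps15, Kcnj11 and Jag1 (0.74, 0.73 and 0.72), and for Igfbp4 Col4a2, Ctps1 and Cpa1 (0.73, 0.71 and 0.71). For Igfbp5 they were Son, Prrc2b and Sos2 (0.88, 0.87 and 0.85), for Igfbp6 Gpc3, Mfap5 and Galnt16 (0.85, 0.84 and 0.83), and for Igfbp7 Chst12, Pxdn and Fxyd1 (0.92, 0.91 and 0.89). All points share the arrays and their normalization.

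Of 58 other genes of the pathway, 50 were measured, and by the brightest probe set of each 1 was called in day 3 against day 1 (0.955% of all probe sets called), 2 for clock hour (1.76%) and 0 in the other 5 day pairs. None of 8 genes of growth hormone input, 10 of the insulin receptor and docking proteins, 19 measured of the PI3K, AKT and TOR branch or 4 measured that act on Igf2 RNA was called in a day pair, and 1 of 9 measured genes of IGF availability was. That gene, Stc2, an inhibitor of the protease that frees IGF from Igfbp4, lay between 24.02 and 43.4 (median 36.5) on day 3 and between 44.3 and 187 (median 158) on day 1. The highest rat of day 3, with 43.4, lay just below the lowest of day 1, the rat of 13 h with 44.3, and the next of day 1 had 108. Stc2 fell by 1.88 on the log2 scale (SE 0.34, limma adjusted p = 0.0059). Igfbp4 itself had -0.25 in that comparison and was not called.

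Over clock hour Adamts1, a matrix protease, fell by 0.83 over 10 h (SE 0.19, adjusted p = 0.016), with 448 ± 144 (SD, n = 17) in rats sampled later in the day and 634 ± 174 (SD, n = 14) in those sampled earlier. Cish, a suppressor of cytokine signaling induced by STAT5, rose by 0.58 (SE 0.15, adjusted p = 0.038), with 297 ± 63.9 (SD, n = 17) later and 228 ± 45.5 (SD, n = 14) earlier. The slope of Igf1, a STAT5 target, was 0.10 over the same 10 h and was not called. A dimmer probe set of Deptor, 1393615_at, a TOR inhibitor, fell in day 3 against day 1 by 0.57 (adjusted p = 0.016), while the brighter 1374758_at had -0.36 (adjusted p = 0.069). The Adamts1 and Cish calls were lost with the 4 tissue lists as covariates (adjusted p = 0.17 and 0.25), and the Deptor call with the rats of 41.6 and 43 h counted with day 3 (adjusted p = 0.10). Cish was also lost without single rats, namely those of 7 and 17.6 h on day 1, of 41.6, 34.5, 32.8 and 31.6 h on day 2, of 58 and 67.1 h on day 3, and of 79.3 and 86.3 h on day 4 (adjusted p of 0.11 or lower in each), and Adamts1 without the rat of 7 h (adjusted p = 0.052).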

How the data were processed

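The authors deposited a linear intensity for each probe set. According to the submitters' processing notes it was made with GCRMA, a method that subtracts background by probe sequence and puts the arrays on a common scale, and its version is not given in the sources at hand. The values ran from 2.22 to 37317. The 57 control probe sets were left out of the tests, although those of beta-actin and GAPDH served as a check of RNA integrity. Symbols came from the platform annotation, and the Entrez identifiers of all 21 member probe sets matched the same symbol in the GRCr8 gene table. The number of arrays limits the precision, slide and scan batches were not known, and p-values measure the spread between single rats.

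Log2 intensities of probe sets with a median of at least 10 were fitted in limma 3.58.1 (R 4.3.3) with cycle day as a factor and a slope over clock hour, on 31 arrays, with Benjamini-Hochberg adjustment over all 22943 probe sets. Day pairs share rats, so their values are set side by side and are not independent. Rats sampled from 13 h on were counted as later in the day for the means by time of day. Method 1 used an order 2 spline and the study's permutation vector. Correlations used the brightest probe set of each gene and 100000 shuffles, with numpy 2.4.6, pandas 2.3.3 and scipy 1.17.1 in Python 3.11.15, and figures with matplotlib 3.10.9. The scripts were tested on simulated data.

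Named were every kept member probe set, pathway genes past 0.05 in a comparison, and the 3 genes with the highest r to each member. The members and lists were chosen with earlier results of these data known. Alternatives covered the filter (also at least 10 on each array, as in the study), normalization, log scale, variance model, covariates, day boundary, arrays used and probe set per gene. For pairs of genes the probe set was not varied. The control ratios and the alternatives for pairs were added after seeing the data.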

Additional observations from a re-analysis of the deposited data

Results flagged for a closer look

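In 72 groups of rats of the same day, 4 days for each of the 18 member probe sets, a single rat stood far from the others in 3, where chance gives about 1 in 20. The rat of 62.5 h was low on day 3 for 1368123_at of Igf1r, with an intensity of 68.1, the next value being 91.0. The rat of 79.3 h was low on day 4 for Igfbp2, with 1099, the next being 1590. The rat of 10 h was high on day 1 for 1387348_at of Igfbp5, with 6537, the next being 4321.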

How the results depend on the processing

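No paired analysis was possible because the replicate numbers only name rats in accession order. The count of called IGF family probe sets was 0 in every alternative run and with each rat left out, for all 6 day pairs, any day, clock hour and slopes by day. For Method 1 it was 0 in the 5 alternatives run, and rats were not left out in turn. The lowest adjusted p in any of these was 0.14, for day 3 against day 1 with array weights. For Igfbp5, day 4 against day 3 was -0.11 by the brightest probe set and turned sign with 1387347_at (0.069), 1387348_at (0.089), 1396152_s_at (0.039) and 1397830_at (0.0054), none of them called. The 8 pairs past the threshold became 5 after quantile normalization, all among the 8, 6 by Spearman's rho, 7 after removal of day and clock hour (6 of the 8) and 8 after removal of the 4 tissue lists (4 of the 8). After either removal the shuffles did not allow for the terms fitted out, so those counts may run high. The cause of the differences between settings was not tested. Stc2 stayed past the threshold in every alternative run. Cish lost its call in 10 of the 31 runs with a rat left out, where its adjusted p reached 0.11, after median centring (0.054) and with the rats of 41.6 and 43 h counted with day 3 (0.052). With 7 or 8 rats per day and 1 rat per hour, changes in the members that are small beside the intervals given could not be shown.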

Other observations

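The array of 40 h, used only in an alternative that counted it with day 2, had values within the range of the 31 rats for 17 of the 18 member probe sets. The exception was 1397830_at of Igfbp5, with 892 against a lowest value of 933. Its Igf1 intensity was 3732, its Igf1r intensity 427, its Igfbp2 intensity 1470 and its Igfbp7 intensity 10498.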
